A study of Mus musculus with 7 samples.

Results

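The vomeronasal receptor genes of the mouse were examined in anti-V5 chromatin immunoprecipitation sequencing (ChIP-seq) of the embryonic face. Members were the genes of the deposited count table whose mouse symbol begins with Vmn1r or Vmn2r and a number, and 353 of the table's 27179 genes met this rule. They comprised 230 type 1 genes (Vmn1r) and 123 type 2 genes (Vmn2r). All 230 type 1 genes and 122 of the 123 type 2 genes are annotated as protein-coding, and the other type 2 gene, Vmn2r125, as a pseudogene.

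The first and second pharyngeal arches were taken from C57BL/6 embryos at E10.5. In the V5 group the embryos were homozygous for an allele of Moz (Kat6a) that carries an in-frame Flag-V5-BIO triple tag at the carboxy-terminal end of the MOZ protein, a histone acetyltransferase, and 3 libraries were made from anti-V5 precipitates (ChIP values marked below as with the tag). In the wild-type group, 3 libraries were made from anti-V5 precipitates of arches with no V5 epitope, which served as the negative control (ChIP values marked as without it). The single input library came from tagged arches with no antibody. The tag was introduced through embryonic stem cells and sits in the gene's own locus, so no transgene promoter was involved, and the labels name no line number. The labels leave the origin of the replicates open: separate embryos, separate litters and repeat libraries of 1 pool are all possible, so a p-value here covers only the scatter among the libraries at hand, part or all of which may be technical. The arches were sequenced in bulk, so a change in a few cells and a smaller one in all cells cannot be told apart. The libraries measure DNA and not RNA, so the labelled tissue could not be checked against expressed markers.

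Vomeronasal receptors are G-protein-coupled receptors of the sensory neurons of the vomeronasal organ, where they detect pheromones and other social cues. Type 1 receptors act with the G-protein subunit encoded by Gnai2 and are encoded by short genes with a single coding exon. Type 2 receptors act with the subunit encoded by Gnao1, have a large extracellular ligand-binding domain, and are encoded by long genes with several exons. Both families lie in clusters of recently duplicated copies, some of them near-identical in sequence, and neither is known for a role in the pharyngeal arches, whose mesenchyme and epithelium form the jaw and middle ear.

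The difference in gene structure set how much of the genome each type covered in the counts. The deposited gene length equalled the whole annotated span, introns included, for 216 of 230 type 1 genes and 109 of 123 type 2 genes. Type 1 genes had a median length of 924 bp, with a range of 870 to 8858 bp and 25 genes over 1100 bp. Type 2 genes had a median length of 23647 bp, with a range of 7882 to 79306 bp. Together the type 1 genes covered 262 kb and the type 2 genes 3061 kb.

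The sequence around the gene start is shown for genes on which the following results turn. Each run is 5′ to 3′ on the gene's own strand, from RefSeq's GRCm38.p6 annotation, with the 250 bases before the gene start in lower case and the first 50 bases of the gene, which lie in the counted span, in capitals. The first is shared letter for letter by the type 1 genes Vmn1r130 (chr7:21511530-21511829, plus strand) and Vmn1r165 (chr7:23217082-23217381, plus strand), which had 0 counts in all 7 libraries. Vmn1r49 (chr6:90072969-90073268, minus strand) is a type 1 gene with counts in both ChIP groups. The third is shared by the type 2 genes Vmn2r62 (chr7:42793447-42793746, minus strand), with 282 counts over the 7 libraries, and Vmn2r126 (chr7:43018548-43018847, plus strand), with 0. Vmn2r60 (chr7:42116221-42116520, plus strand) was the longest member and the only member called in the main fits, with other settings given at the end. Vmn2r91 (chr17:18084807-18085106, plus strand) was among the type 2 genes lowest in ChIP against input. Vmn2r14 (chr5:109224573-109224872, minus strand) was among the type 2 genes highest in ChIP against input.
Vmn1r130 and Vmn1r165: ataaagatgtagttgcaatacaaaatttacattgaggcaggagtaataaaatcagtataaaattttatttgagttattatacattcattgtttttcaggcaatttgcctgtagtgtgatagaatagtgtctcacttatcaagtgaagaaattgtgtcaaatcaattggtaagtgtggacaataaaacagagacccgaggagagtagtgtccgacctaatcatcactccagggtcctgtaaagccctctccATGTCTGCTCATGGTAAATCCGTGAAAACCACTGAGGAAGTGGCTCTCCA
Vmn1r49: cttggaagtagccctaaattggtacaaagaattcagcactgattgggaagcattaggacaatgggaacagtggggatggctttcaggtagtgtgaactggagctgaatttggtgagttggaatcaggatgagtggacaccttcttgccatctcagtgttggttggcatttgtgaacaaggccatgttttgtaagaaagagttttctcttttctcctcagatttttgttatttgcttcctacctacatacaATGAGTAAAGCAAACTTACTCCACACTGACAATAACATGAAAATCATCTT
Vmn2r62 and Vmn2r126: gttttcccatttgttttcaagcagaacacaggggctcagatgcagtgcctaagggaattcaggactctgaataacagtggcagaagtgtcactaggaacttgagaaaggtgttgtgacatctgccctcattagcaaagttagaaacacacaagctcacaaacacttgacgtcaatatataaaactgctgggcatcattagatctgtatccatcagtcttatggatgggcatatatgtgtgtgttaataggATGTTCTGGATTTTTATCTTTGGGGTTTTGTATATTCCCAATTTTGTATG
Vmn2r60: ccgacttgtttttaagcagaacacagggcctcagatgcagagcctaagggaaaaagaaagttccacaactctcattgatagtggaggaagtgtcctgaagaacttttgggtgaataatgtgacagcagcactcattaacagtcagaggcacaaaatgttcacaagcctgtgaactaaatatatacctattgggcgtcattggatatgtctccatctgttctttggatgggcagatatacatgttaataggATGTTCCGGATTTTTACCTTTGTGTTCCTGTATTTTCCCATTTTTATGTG
Vmn2r91: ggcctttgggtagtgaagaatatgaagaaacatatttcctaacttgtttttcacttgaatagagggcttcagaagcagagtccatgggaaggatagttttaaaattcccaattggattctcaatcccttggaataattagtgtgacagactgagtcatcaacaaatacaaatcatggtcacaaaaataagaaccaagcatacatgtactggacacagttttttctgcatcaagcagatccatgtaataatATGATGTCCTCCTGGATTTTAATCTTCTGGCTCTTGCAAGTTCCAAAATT
Vmn2r14: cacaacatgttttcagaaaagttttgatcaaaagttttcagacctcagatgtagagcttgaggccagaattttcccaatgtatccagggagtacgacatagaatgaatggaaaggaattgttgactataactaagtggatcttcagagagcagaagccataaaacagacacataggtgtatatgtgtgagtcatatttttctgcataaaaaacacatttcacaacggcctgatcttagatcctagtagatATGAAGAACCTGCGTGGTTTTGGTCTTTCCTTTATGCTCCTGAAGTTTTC

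Such windows of 300 bases were held for 205 type 1 and 115 type 2 genes. Their median GC content was 36.0% in type 1 and 38.0% in type 2, against 35.0% in 940 olfactory receptor genes and 52.7% in all 27025 windows. The dinucleotide CG was searched as these letters, which read the same on both strands. Its median number was 1 per window in each type and 7 over all windows. It was absent from 21.5% of type 1 and 27.8% of type 2 windows and from 5.78% of all windows. The windows of Vmn1r49 and Vmn2r91 printed above held no CG. The gene part opened with ATG in 180 of the 205 type 1 and 99 of the 115 type 2 windows. It did so in 683 of the 940 olfactory receptor windows and in 1825 of all 27025. Most member windows thus sit at an ATG and most of all windows do not. Their GC and CG values therefore do not compare like positions with those of all windows.

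The deposited counts summed to between 806648 and 3488745 per library, with the lowest total in V5 library 1 and the highest in the input. Counts scaled to a library total of 1000000 (CPM) were taken over these totals. The gene Chl1, outside the members, held 2.12% to 3.51% of the counts in the 6 ChIP libraries and 5.97% in the input. Genes on the X chromosome held 2.77% of the counts in wild-type library 2 and 3.94% to 4.51% in the other 6 libraries. In V5 libraries 1 and 2 the counts of short genes were spread over fewer genes than in the other libraries: 38 and 53 type 1 genes had a count, against 78 in wild-type library 2, 96 each in wild-type library 1 and the input, 159 in wild-type library 3 and 163 in V5 library 3. Olfactory receptor genes showed the same order at its low end, with 253 and 254 of 1126 genes counted in V5 libraries 1 and 2 and 414 to 901 in the other libraries.

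Type 1 genes were higher in both kinds of ChIP library than in the input. Their summed counts were 143, 341 and 898 in V5 libraries 1 to 3, 366, 254 and 714 in wild-type libraries 1 to 3, and 247 in the input. As shares of the library these were 177, 300 and 273 CPM with the tag, 284, 191 and 285 CPM without it and 70.8 CPM in the input, whose exact 95% binomial interval of 62.2 to 80.2 CPM covers counting error only. All 6 ChIP libraries lay above that interval, and the V5 and wild-type values overlapped. The V5 mean of 250 ± 64.4 CPM (SD, n = 3) was 3.53 times the input, and the wild-type mean of 253 ± 53.8 CPM (SD, n = 3) was 3.58 times the input. The ratio of the V5 mean to the wild-type mean was 0.986, so the excess over the input was as large in arches that carried no V5 epitope. With 1 input, the difference has no replicate check on the input side and no p-value was computed for a sum over members.

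Type 2 genes lay on the other side of the input. Their summed counts were 2169, 3247 and 10436 in V5 libraries 1 to 3, 3846, 4407 and 7971 in wild-type libraries 1 to 3, and 17414 in the input. They held 2689, 2852 and 3175 CPM with the tag, 2984, 3320 and 3183 CPM without it and 4991 CPM in the input (exact 95% binomial interval 4918 to 5066 CPM). All 6 ChIP libraries lay below the input, and the V5 and wild-type values overlapped. The V5 mean of 2905 ± 248 CPM (SD, n = 3) was 0.582 of the input and the wild-type mean of 3162 ± 169 CPM (SD, n = 3) was 0.634 of it. Type 2 counts were 70.5 times type 1 counts in the input, against 12.1 ± 2.85 times (SD, n = 3) in V5 ChIP and 13.0 ± 3.78 times (SD, n = 3) in wild-type ChIP.

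Per kilobase of gene the 2 types were alike in the ChIP libraries and far apart in the input. Type 1 genes had 0.677 to 1.14 CPM per kb in the 6 ChIP libraries and 0.270 in the input. Type 2 genes had 0.878 to 1.08 CPM per kb in the ChIP libraries and 1.63 in the input. All genes other than the vomeronasal receptor genes had 0.977 CPM per kb in ChIP and 0.975 in the input. They hold nearly all counts of every library, so the scaling fixes this density and it would be alike in any library. Against that level the ChIP libraries lay near it for type 2 and on both sides of it for type 1. Type 1 genes lay below it in V5 library 1 (0.677) and wild-type library 2 (0.731) and above it in the other ChIP libraries, up to 1.14. The input lay below it for type 1 and above it for type 2. Other genes of 0.5 to 3 kb had 0.890 to 1.16 CPM per kb in ChIP and 0.812 in the input, and other genes of 10 to 60 kb had 0.892 to 0.947 in ChIP and 0.965 in the input. Other genes are all but the vomeronasal receptor genes, so the short class includes the olfactory receptor genes of that length. Olfactory receptor genes, which like type 1 genes are short and clustered, had 0.865 to 1.10 CPM per kb in ChIP and 0.601 in the input.

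**Figure D1:**
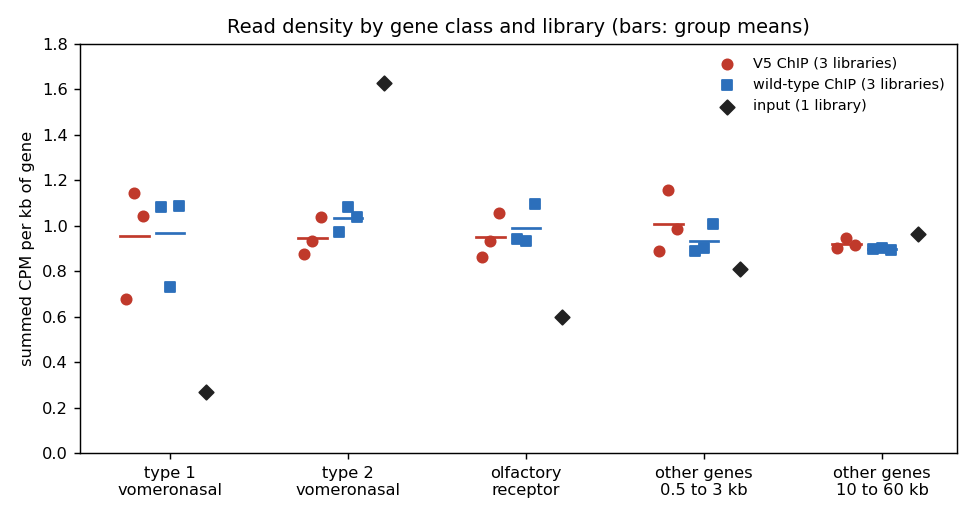
Summed CPM per kb of gene (vertical axis, from 0) for 5 gene classes, with 1 point per library and a bar at the mean of each ChIP group. The input (diamond) lies at 0.270 for type 1 and 1.63 for type 2, outside the range of the 6 ChIP libraries in both, and at 0.965 for other genes of 10 to 60 kb.

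Few reads stood behind any one type 1 gene. Over the 7 libraries a type 1 gene had a median of 9 counts, with a range of 0 to 214, and a type 2 gene a median of 346, with a range of 0 to 1550. The input had no count for most type 1 genes: 96 of 230 were counted there, and 3 counts, the limit that a count of 0 allows, correspond to 0.860 CPM in the input and to 3.72 CPM in V5 library 1. Of the 209 type 1 genes with any count, the mean of the 6 ChIP libraries lay above the input in 185 (88.5%), against 54.8% of all genes with a count. The same held for 911 of 1112 olfactory receptor genes (81.9%), for 2501 of 3933 other genes of 0.5 to 3 kb (63.6%) and for 50 of 119 type 2 genes (42.0%). A gene with few counts is more often found in 6 libraries than in 1, and the part of that in the type 1 share was not tested. The input lay below all 6 ChIP libraries in 5 of the 209 type 1 genes (8.66% of all genes with a count) and above all 6 in 5 (14.1% of all genes with a count).

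The type 1 genes with most reads were Vmn1r45, Vmn1r32 and Vmn1r41, 3 genes of chromosome 6 with spans several times those of most type 1 genes, and these 3 alone had at least 70 counts over the 7 libraries. Vmn1r45 (chr6:89931650-89940507) had 49.6, 19.3 and 22.2 CPM with the tag, 10.9, 13.6 and 12.0 CPM without it and 4.87 CPM in the input. The lowest tagged value exceeded the highest untagged one, and all 6 lay above the input. The 40 counts of Vmn1r45 in V5 library 1 made up 28.0% of all type 1 counts there, and the top 5 genes 56.6%. Vmn1r32 (chr6:66552183-66559708) had 12.4, 15.8 and 11.9 CPM with the tag, 21.7, 6.78 and 6.39 CPM without it and 4.01 CPM in the input, so the ChIP groups overlapped and the input was lowest. Vmn1r41 (chr6:89740888-89747414) had 1, 10 and 51 counts with the tag, 0, 5 and 11 without it and 15 in the input, and its input value lay inside the ChIP range.

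The excess of type 1 genes in ChIP did not rest on these long genes. The 205 type 1 genes of up to 1100 bp had 0.468 to 1.19 CPM per kb in the ChIP libraries and 0.196 in the input, and the 25 longer ones 0.793 to 1.41 in ChIP and 0.470 in the input. The type 1 genes with most input counts per kb, named by that measure, had few counts in all. Vmn1r58 (chr7:5408887-5413145) had 9, 2 and 10 counts with the tag, 3, 3 and 2 without it and 27 in the input. Vmn1r48 had 17 of its 23 counts in V5 library 2 and 4 in the input, and Vmn1r16 had 6 of its 15 counts in the input. Vmn1r8, Vmn1r87 and Vmn1r88 had 5, 3 and 4 counts in the input.

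The receptors encoded by Vmn1r89 and Vmn1r85 respond to sulfated steroids. Vmn1r89 had 0, 0 and 13 counts with the tag, 0, 2 and 1 without it and 1 in the input. Vmn1r85 had 3 counts in all, 1 in wild-type library 2 and 2 in wild-type library 3. Vmn1r49, whose start window is printed above, had 0, 5 and 4 counts with the tag, 0, 0 and 9 without it and 1 in the input. At such counts no difference between groups was detectable for these genes.

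**Figure D2:**
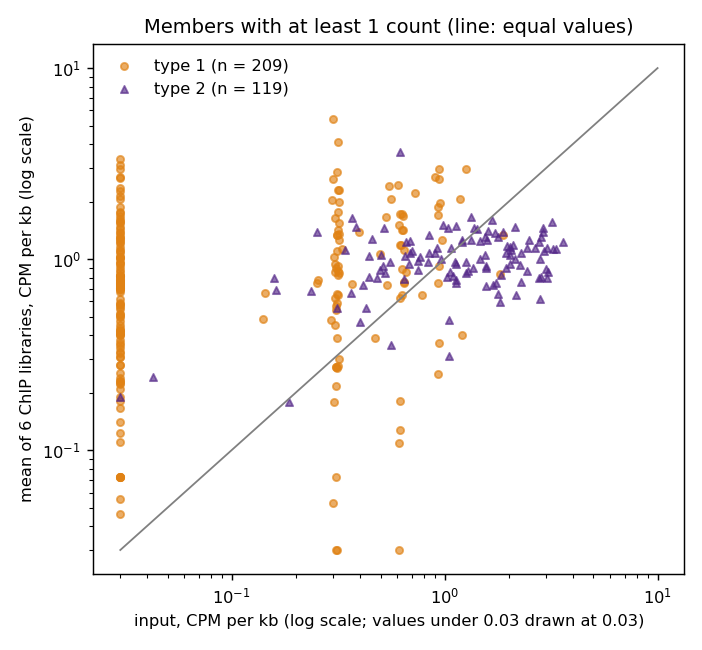
Each point is a member with at least 1 count, placed by its input CPM per kb (horizontal, log scale) and the mean CPM per kb of the 6 ChIP libraries (vertical, log scale), with the line of equal values. Type 1 genes stand in columns at the left, since most had no input count, and type 2 genes spread widely along the input axis at a nearly level ChIP value.

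Type 2 genes had enough reads to be described gene by gene: 117 of 123 had at least 70 counts. Among these the median log2 ratio to the input was -0.59 for the V5 mean and -0.24 for the wild-type mean. For all genes other than the vomeronasal receptor genes it was 0.03 and 0.00. The ratio of the mean of all 6 ChIP libraries to the input was below -1 on the log2 scale in 34 of the 117 genes (29.1%), against 5.47% of all genes with at least 70 counts. It was above 1 in 13 (11.1%), against 6.84% of all genes. The input lay above all 6 ChIP libraries in 48 of the 117 (15.4% of all genes) and below all 6 in 12 (11.6% of all genes). The type 2 genes thus departed from the input in both directions, more often downward, with a range of log2 ratios from -2.16 to 2.53.

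The spread among type 2 genes lay in the input. Their input density had quartiles of 0.69 and 2.03 CPM per kb, and their ChIP density quartiles of 0.81 and 1.25. Other genes of 10 to 60 kb with at least 70 counts had input quartiles of 0.67 and 1.23 and ChIP quartiles of 0.74 and 1.09. The upper quartile in the input was thus where type 2 genes stood apart from genes of like length.

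At the low end of ChIP against input stood Vmn2r87, Vmn2r6 and Vmn2r91. Vmn2r87 (chr10:130471821-130497379) had 7.44, 5.27 and 30.7 CPM with the tag, 14.0, 22.6 and 14.4 CPM without it and 71.7 CPM in the input. Vmn2r91 had 47.1, 24.6 and 59.9 CPM with the tag, 42.7, 51.2 and 38.3 CPM without it and 157 CPM in the input. In both genes the input lay above all 6 ChIP libraries, the log2 ratio of the ChIP mean to the input was -2.16 and -1.83, and the V5 and wild-type values overlapped. The type 2 genes with most input reads per kb, Vmn2r13, Vmn2r90, Vmn2r58, Vmn2r107, Vmn2r91 and Vmn2r6, had log2 ratios of -1.55, -1.56, -1.50, -1.02, -1.83 and -1.91. They were chosen by their input value, so a low ratio followed in part from the choice.

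At the high end stood Vmn2r129, Vmn2r35 and Vmn2r14. Vmn2r129 (chr4:156331103-156339499) had 22.3, 62.4 and 22.2 CPM with the tag, 20.2, 32.4 and 22.8 CPM without it and 5.16 CPM in the input. All 6 ChIP libraries lay above the input, with a log2 ratio of 2.53. Vmn2r14 (chr5:109214956-109224622) had 7, 1 and 36 counts with the tag, 30, 31 and 22 without it and 8 in the input, and V5 library 2 alone lay below the input. Vmn2r35 (chr7:7786151-7819867) had 5 counts in the input and 5 to 39 in the ChIP libraries.

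The type 2 receptors divide into the broadly co-expressed C family, Vmn2r1 to Vmn2r7, and receptors expressed in few neurons each. In the C family, Vmn2r1 had 42.2, 27.2 and 22.2 CPM with the tag, 31.0, 27.9 and 25.9 CPM without it and 28.7 CPM in the input, a level inside the ChIP range. Vmn2r4 had 23.4 to 37.2 CPM in the 6 ChIP libraries and 61.9 CPM in the input. Vmn2r6 had 8.68 to 25.6 CPM in ChIP and 67.4 CPM in the input, and Vmn2r7, whose start window was 99.3% identical to that of Vmn2r6, had 4.96 to 47.3 and 81.4 CPM. The log2 ratios of the ChIP mean to the input over Vmn2r1, Vmn2r2, Vmn2r3, Vmn2r4, Vmn2r5, Vmn2r6 and Vmn2r7 were 0.04, 0.09, -0.58, -0.98, 0.44, -1.91 and -1.48, so the 7 neighbours did not move as one.

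Receptors with known ligands or known expression were also taken. Vmn2r116 encodes the receptor for the male tear peptide ESP1, and had 9.66 to 24.7 CPM with the tag, 9.04 to 25.5 CPM without it and 12.0 CPM in the input. Vmn2r26 had 64.5, 27.2 and 40.5 CPM with the tag, 59.7, 69.3 and 48.7 CPM without it and 70.2 CPM in the input, which was the highest of the 7. Vmn2r88 had 0 counts in all 7 libraries, and its span overlaps that of another gene.

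Within type 2, ChIP against input went with gene length. Over the 117 genes with at least 70 counts, the Spearman correlation of length with the log2 ratio of the ChIP mean to the input was -0.59. Length went with the input density (0.59) and hardly with the ChIP density (-0.07). These are correlations across genes of the same 7 libraries, which share depth and neighbours and are no independent replicates. Over 12028 other genes in the same range of lengths the corresponding values were 0.02, 0.03 and 0.10.

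In classes of length the median log2 ratio of type 2 genes was 0.65 at 7.5 to 18 kb (41 genes), -0.09 at 18 to 25 kb (22 genes), -1.02 at 25 to 35 kb (31 genes) and -0.94 at 35 to 80 kb (23 genes). The ratio was positive in 31 of the 41 shortest genes and in 0 of the 23 longest. Median input density rose over these classes from 0.69 to 1.21, 1.78 and 2.02 CPM per kb, while median ChIP density was 1.04, 1.04, 0.96 and 1.08. Other genes had medians of -0.03, -0.04, -0.03 and 0.03 in the same classes. Inside single clusters of at least 7 such type 2 genes the correlation of length with the ratio was negative in 7 of 8, from -0.86 for Vmn2r111 to Vmn2r117 to -0.54 for Vmn2r29 to Vmn2r37, and 0.03 for Vmn2r19 to Vmn2r27.

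**Figure D3:**
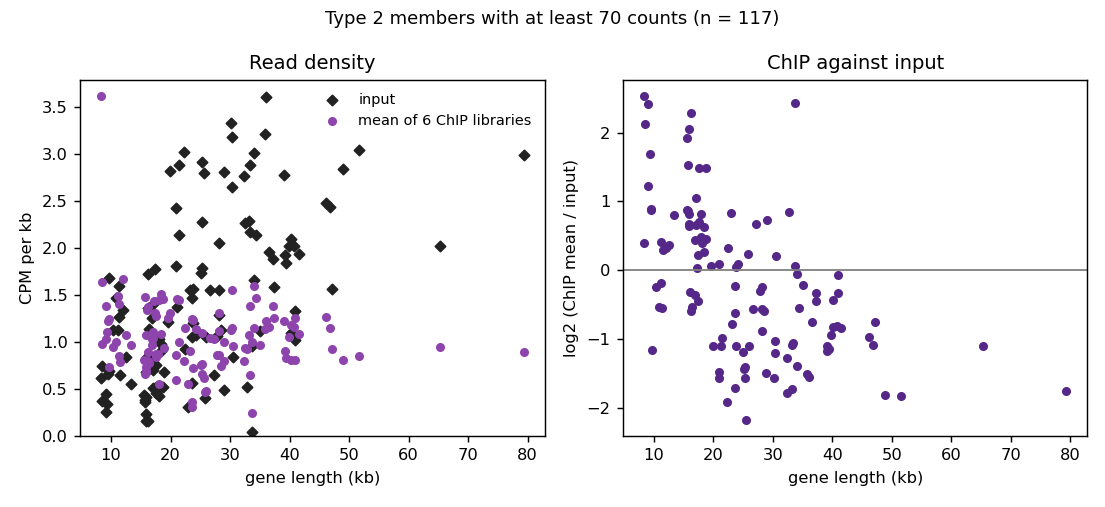
Type 2 genes with at least 70 counts (117 points) by gene length in kb. Left, CPM per kb of the input (diamonds) and of the mean of 6 ChIP libraries (circles); right, the log2 ratio of the ChIP mean to the input. The input density climbs with length from a median of 0.69 to 2.02 CPM per kb while the ChIP density stays near 1, and no gene of 35 kb or longer lies above 0 on the right.

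By position, neighbouring members of a type closer than 500 kb formed 16 clusters of type 1 genes and 21 of type 2, counting genes that stood alone. In the 10 type 1 clusters of at least 3 genes the input lay below all 6 ChIP libraries in 6 and above all 6 in 0. In the 13 type 2 clusters of that size the input lay above all 6 in 11 and below all 6 in 0. The contrast between the types was thus seen on several chromosomes.

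The largest type 1 cluster, Vmn1r91 to Vmn1r183 (chr7:20101158-24055691, 86 genes), had 0.263 to 1.02 CPM per kb in the ChIP libraries and 0.101 in the input. The cluster Vmn1r188 to Vmn1r223 on chromosome 13 (35 genes) had 0.448 to 1.31 and 0.224, and Vmn1r4 to Vmn1r31 on chromosome 6 (28 genes) had 0.578 to 2.66 and 0.396. The cluster Vmn1r40 to Vmn1r54 on chromosome 6 (15 genes) was the one with Vmn1r45, and it had 1.59 to 2.00 CPM per kb in V5, 0.902 to 1.02 in wild-type and 0.392 in the input. Without Vmn1r45 the V5 values were 0.568 to 1.94 and the wild-type values 0.690 to 0.948, which overlapped. The 4 clusters in which the input fell inside the ChIP range all lay on chromosome 7: Vmn1r55 to Vmn1r65, Vmn1r66 to Vmn1r71, Vmn1r72 to Vmn1r84 and Vmn1r85 to Vmn1r89.

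The largest type 2 cluster, Vmn2r90 to Vmn2r110 (chr17:17703941-20596259, 21 genes), had 0.885 to 1.23 CPM per kb in the ChIP libraries and 1.74 in the input. Among clusters of that size the highest input density was 2.25 CPM per kb in Vmn2r8 to Vmn2r17 on chromosome 5, against 1.05 to 1.46 in ChIP. The 2 exceptions were neighbours on chromosome 7: Vmn2r29 to Vmn2r37 had 0.568 to 0.830 in ChIP and 0.795 in the input, and Vmn2r46 to Vmn2r52 had 0.431 to 0.867 and 0.561. The pair Vmn2r129 and Vmn2r125 on chromosome 4 had 1.20 to 5.43 in ChIP and 0.907 in the input. The single member on the X chromosome, Vmn2r121 (chrX:124127339-124135910), had 15, 13 and 45 counts with the tag, 21, 7 and 48 without it and 11 in the input. Its CPM was above the input in all 6 ChIP libraries and lowest in wild-type library 2, the library with the low share of X chromosome counts, whose part in that value was not tested.

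Genes of other families inside the clusters were counted too. The 42 other genes within type 1 clusters had, summed, 0.569 to 0.961 CPM per kb in ChIP and 1.23 in the input, and single clusters differed. The 21 neighbours in Vmn1r91 to Vmn1r183 had 0.292 to 0.694 in ChIP and 0.753 in the input, while the 7 in Vmn1r224 to Vmn1r237 had 0.536 to 1.30 and 0.507, with the input below all 6 ChIP libraries as for the type 1 genes there. The 28 other genes within type 2 clusters had, summed, 0.951 to 1.10 in ChIP and 1.56 in the input, and again single clusters differed. The 11 neighbours in Vmn2r57 to Vmn2r126 had 0.683 to 1.20 in ChIP and 1.87 in the input, on the same side as the type 2 genes, whereas the 11 in Vmn2r90 to Vmn2r110 had 0.689 to 1.23 and 0.612, on the opposite side.

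**Figure D4:**
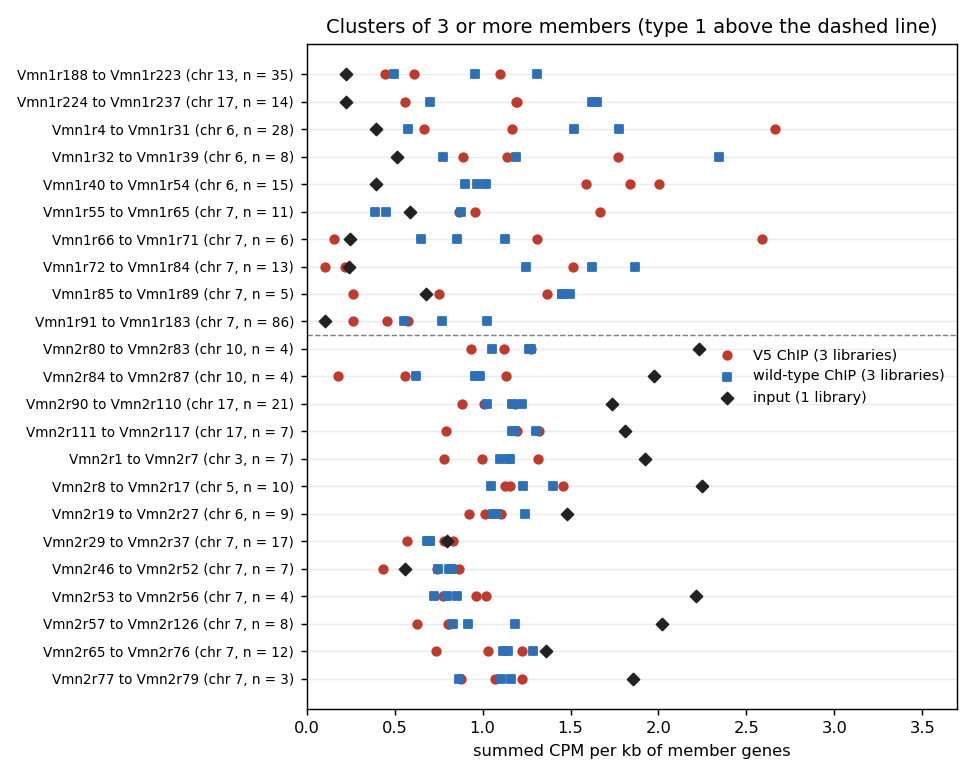
Summed CPM per kb of the member genes (horizontal, from 0) in each cluster of at least 3 genes, with 1 point per library and the number of genes in brackets. In 6 of 10 type 1 clusters the input (diamond) lies left of all 6 ChIP libraries, and in 11 of 13 type 2 clusters it lies right of all 6.

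Low counts of type 1 genes went with start windows at 98% identity or more to another member's. For each gene the start window was compared with those of all other members of its type. Of the 21 type 1 genes at 0 in all 7 libraries, 15 had a window identical to another member's, and 17 of the 21 lay in the largest chromosome 7 cluster. That cluster also held 52 of the 54 type 1 genes with an identical window, so likeness and cluster can hardly be told apart. Counts were 0 in 15 of the 54 type 1 genes with an identical copy of their window and in 2 of the 16 at 98% identity or more short of full identity. They were 0 in 0 of the 30 at 90% to under 98% and in 2 of the 105 under 90%. Median counts per kb over the 7 libraries summed were 3.25 in the 54 genes with an identical window and 5.41 in the 16 next in likeness. They were 13.1 in the 30 genes at 90% to under 98% and 8.71 in the 21 at 80% to under 90%. Below that they were 11.1 in the 28 genes at 70% to under 80% and 12.4 in the 56 genes under 70% identity. Vmn1r130 and Vmn1r165, printed above, are a pair with an identical window.

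Of the 4 type 2 genes at 0, Vmn2r88, Vmn2r89 and Vmn2r122 overlap other genes by chromosome label and position, and Vmn2r126 shares its window with Vmn2r62. The label does not tell a chromosome from an unplaced sequence assigned to it. Vmn2r122 is listed at 3536 to 11935 of chromosome 4, so its overlap is uncertain. Vmn1r186 and Vmn1r187, also at 0, are listed between 94186 and 172761 of chromosome 7. The placement of these genes was not checked. Vmn2r62 had 25, 12 and 61 counts with the tag, 40, 29 and 66 without it and 49 in the input. How reads with several matches were treated is not given in the sources used here, so counts of such genes are uncertain. The contrast between the types was present in members with windows under 90% identical: 105 type 1 genes had 0.598 to 1.31 CPM per kb in ChIP and 0.284 in the input, and 51 type 2 genes had 0.932 to 1.15 in ChIP and 1.81 in the input. The 23 type 2 genes at 98% or more had 0.651 to 0.996 in ChIP and 1.36 in the input. Gene by gene, however, their ChIP mean exceeded the input in 13 of 22 with a count, against 15 of 50 under 90%. Their median length was 17986 bp, against 26643 bp under 90%. The part of likeness in the trend with length was not tested.

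**Figure D5:**
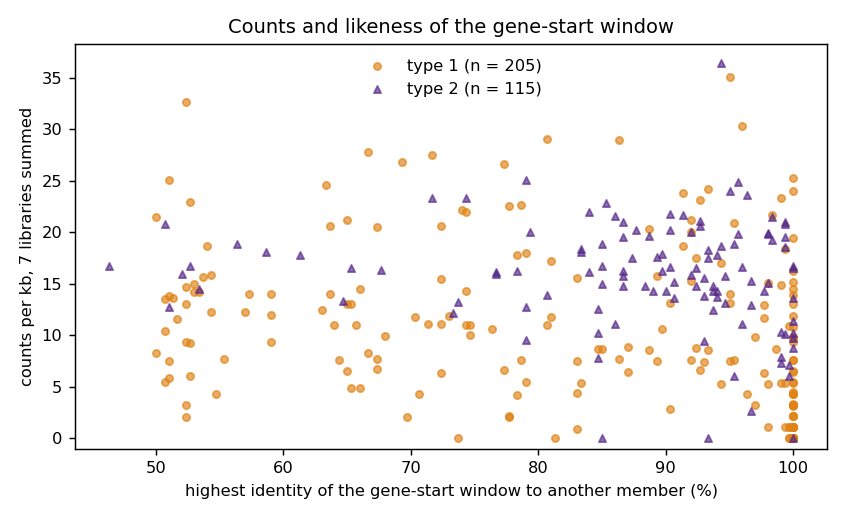
Counts per kb summed over the 7 libraries (vertical) against the highest identity, in percent, of a gene's 300-base start window to that of another member of its type (horizontal). Type 1 genes with an identical copy stand at the right edge and reach down to 0, with a median of 3.25 counts per kb.

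The comparison of tagged with wild-type arches asks where tagged MOZ was enriched over the negative control. No member was called. The edgeR quasi-likelihood test was fitted to the 6 ChIP libraries over 14575 genes that passed a filter on low counts, among them 2 type 1 and 114 type 2 genes, and it called 0.0% of all genes higher and 0.0% lower at an adjusted p of 0.05. At an unadjusted p under 0.05, 1 type 1 gene (Vmn1r45) and 1 type 2 gene (Vmn2r94) were higher in V5 (2.85% of all genes tested) and 3 type 2 genes were lower (1.34% of all genes tested). The median log2 fold change of the 114 type 2 genes was -0.14, with 48 above 0, and that of all genes tested 0.03. All 3 V5 libraries lay above all 3 wild-type libraries in 4 type 2 genes and 1 type 1 gene (4.83% of all genes tested), and below in 11 type 2 genes (5.27%).

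The members with the smallest unadjusted p were as follows. Vmn1r45, with the values given above, was 1.35 higher on the log2 scale with the tag (SE 0.59; adjusted p = 0.978 by edgeR), and 0.76 higher without V5 library 1. Vmn2r94 (chr17:18243570-18285259) had 86.8, 75.5 and 50.5 CPM with the tag and 38.8, 41.4 and 33.5 CPM without it, with 56.5 CPM in the input, inside the V5 range, and was 0.94 higher on the log2 scale with the tag (SE 0.36; adjusted p = 0.978 by edgeR). The ChIP groups did not overlap in either gene, and neither difference passed the adjustment. Vmn2r2 had 85.5 CPM in V5 library 1 and 10.9 to 27.9 CPM in the other 5 ChIP libraries, and its log2 fold change of 1.16 (SE 0.60) was 0.09 without that library. Vmn2r107 had 59.5, 92.2 and 28.3 CPM in V5 and 22.5, 46.0 and 35.1 CPM in wild-type, which overlapped, and its log2 fold change of 0.82 (SE 0.44) was 0.36 without V5 library 2.

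In the other direction, Vmn2r98 (chr17:19053493-19081311) had 5, 12 and 82 counts with the tag and 42, 41 and 96 without it, which in CPM ranged from 6.20 to 24.9 and from 30.9 to 38.3, a log2 fold change of -1.20 (SE 0.55), or -1.94 without V5 library 3. Vmn2r109 (chr17:20540517-20564756) had 3.72, 21.1 and 24.0 CPM with the tag and 45.0, 41.4 and 30.3 CPM without it, for which the fitted log2 difference was -1.18 (SE 0.54). Vmn2r7 had 4.96, 22.8 and 25.3 CPM with the tag and 47.3, 32.4 and 40.7 CPM without it, fitted as a log2 difference of -1.11 (SE 0.52). The groups did not overlap in these 3 genes, in each of which V5 library 1, the shallowest, was lowest, and the edgeR adjusted p was 0.978 for each. For the named type 1 genes below the filter a two-sided exact permutation test of CPM, which cannot go below 0.1 with 3 libraries against 3, gave p from 0.3 to 1.0.

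Each ChIP group was also compared with the input in an edgeR quasi-likelihood fit over all 7 libraries and 18600 genes, in which the lone input was assumed to vary like the ChIP libraries. The V5 and the wild-type comparison share the input and are given side by side. Of 118 type 2 genes tested, 1 fell in V5 against the input (0.22% of all genes tested called lower) and 0 rose (0.0161%). In the wild-type group 0 fell (0.108% of all genes) and 0 rose (0.0161%). None of the 24 type 1 genes tested was called in either group, and 2 in V5 and 1 in wild-type were higher at an unadjusted p under 0.05. With the lone input as the smallest group, the low-count filter kept a gene that was high enough in 1 library only. The direction of these type 1 genes against the input may thus rest in part on the filter. At that unadjusted level 24 type 2 genes were lower in V5 (2.67% of all genes tested) and 2 higher (3.13%), and 25 were lower in wild-type (1.93%) and 3 higher (2.46%).

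The called gene was Vmn2r60 (chr7:42116471-42195776), named here because it was the only one in the main fits, after its values were seen. It had 37, 92 and 206 counts with the tag, 84, 137 and 165 without it and 829 in the input. These were 45.9, 80.8 and 62.7 CPM in V5, 65.2, 103 and 65.9 CPM in wild-type and 238 CPM in the input, so all 6 ChIP libraries lay below the input and the ChIP groups overlapped. Relative to the input the fitted log2 change reached -1.90 in V5 (SE 0.37; adjusted p = 0.00723 by edgeR) and -1.61 in wild-type (SE 0.37; adjusted p = 0.0570 by edgeR). V5 minus wild-type was -0.27 on the log2 scale (SE 0.32; adjusted p = 0.983 by edgeR). Without V5 library 3 the V5 call was lost (adjusted p = 0.0760 by edgeR) at a log2 change of -1.86. The next smallest adjusted p-values among members were those of Vmn2r91 (0.0709 in V5 and 0.0903 in wild-type) and Vmn2r57 (0.0871 in V5).

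Other genes of the vomeronasal system were taken from a list of known components. Of 28 genes of signal transduction and of neuron development, 27 were found and 17 tested in V5 against wild-type, and 0 were called. In 11 of the 17 the V5 group was the higher one, and the median log2 difference was 0.10. Gnao1, which encodes the G-protein subunit of type 2 neurons, had a log2 fold change of 0.28 (SE 0.24). Gnai2, which encodes that of type 1 neurons, had 7, 103 and 80 counts in V5 libraries 1 to 3 and 18, 15 and 65 in wild-type libraries 1 to 3, so the groups overlapped, at 41.2 ± 43.4 CPM (SD, n = 3) with the tag and 17.1 ± 7.80 CPM (SD, n = 3) without it. The list's genes had 0.872 to 0.896 CPM per kb in ChIP and 0.650 in the input. Other vomeronasal receptors and their associated molecules (Fpr-rs and H2-M genes, 13 of 14 found) had too few counts to be tested in V5 against wild-type, and 0 of the 3 tested against the input were called. They had 0.299 to 1.09 CPM per kb in ChIP and 0.292 in the input. The 36 genes of the Esp and Mup families, which encode ligands, had 0.600 to 0.992 CPM per kb in ChIP and 0.483 in the input, and 0 of the 7 tested were called.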

How the data were processed

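The authors' deposited table holds whole-number counts per gene for 7 libraries, and the 7 single-library files hold the same counts. Per the submitters' processing notes, bcl2fastq, featureCounts and MACS were used with build mm10. For the aligner, the counting options and the treatment of duplicates or of reads with several matches: not given in the sources used here. Symbols were found for 25275 of 27179 gene identifiers in a RefSeq table of GRCm38.p6, and 1 gene has a deposited length that is not positive. Totals of 806648 to 3488745 counts limit type 1 genes to a few counts each. Intervals and limits at 0 cover counting error only.

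Counts were tested with edgeR 4.0.16 in R 4.3.3 (a minimum count of 10 in the low-count filter, TMM factors, robust quasi-likelihood fit, Benjamini-Hochberg adjustment over all genes tested, two-sided). V5 against wild-type used 6 libraries, and ChIP against input used 7 in 3 groups. The fits were tested on simulated data. Log2 ratios used a prior count of 0.5 and genes with at least 70 counts. The alternatives were DESeq2 1.42.0, limma 3.58.1 with voom weights, RLE factors, no filter, a replicate block, each library left out, other priors and minima, and other sets of members. Identity of start windows replaced the planned identity of proteins, which were not used here.

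Members and lists were chosen with earlier results of these data known. The rule for named genes took, for each type, the 6 of highest input counts per kb, up to 3 with the smallest p in each direction between V5 and wild-type, the 3 highest and 3 lowest in ChIP against input, the X-linked member, and Vmn2r1 to Vmn2r7, Vmn2r26, Vmn2r88, Vmn2r116, Vmn1r49, Vmn1r85 and Vmn1r89.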

Additional observations from a re-analysis of the deposited data

Results flagged for a closer look

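In Vmn2r98 all 3 V5 libraries lay below the input and all 3 wild-type libraries above it (29.5 CPM), and the log2 ratio of the V5 mean to the wild-type mean was -1.29. The same held for Vmn2r109 (input 26.1 CPM), with a log2 ratio of -1.26. The difference between the V5 and the wild-type effect against the input was not tested apart from the comparison of V5 with wild-type, in which neither gene was called (edgeR adjusted p = 0.978 for each).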

How the results depend on the processing

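Of 415 values under alternatives for 40 results, 354 kept their direction and size or side of the threshold. Some of the 354 could not have changed. Examples are the ratio of type 2 to type 1 under other totals and type 2 sums when only type 1 genes were altered. Type 1 sums over protein-coding members, which are all type 1 genes, are another. The tally is therefore no measure of robustness. No member was called between V5 and wild-type under any alternative run. The same-numbered V5 and wild-type libraries had correlations of their deviations of 0.01, 0.01 and 0.06, so the replicate numbers were not taken as a pairing, and with the replicate block 1 gene of the whole table was called higher in place of 0. Over all genes V5 exceeded wild-type in 1 gene with DESeq2, 1 with limma-voom, 9 with no filter and 0 to 2 with a library left out, and fell below it in 3 with limma-voom. Against the input, V5 had 3 genes higher (73 with DESeq2, 8 with library totals, 15 with no filter, 0 to 29 with a library left out) and 41 lower (85 with no filter, 23 to 103 with a library left out). Wild-type had 3 higher (90 with DESeq2, 10 with library totals, 13 with no filter, 0 to 76 with a library left out) and 20 lower (44 with DESeq2, 50 with no filter, 1 to 92 with a library left out). Type 2 genes called lower numbered 1 in V5 (3 with no filter; 5 without V5 library 1, 4 without V5 library 2, 0 without V5 library 3) and 0 in wild-type (1 with library totals, 2 with no filter; 4 without V5 library 1, 3 without V5 library 2). Vmn2r60 in wild-type against the input passed with library totals (adjusted p = 0.0368), with no filter (0.00866), without V5 library 1 (0.00109) and without V5 library 2 (0.00298), and its DESeq2 adjusted p was not given by the tool. The cause of these changes was not tested.

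For summed CPM, the type 1 log2 ratio of wild-type to input was 1.84 and 2.25 without the genes over 1100 bp. That of type 2 was -0.66, and -0.56 without the 5 highest members or -0.74 in members with windows under 90% identical. The log2 ratio of type 2 to type 1, wild-type minus input, was -2.48, and -2.88 without the type 1 genes over 1100 bp. With a library left out the type 1 ratio to the input ranged from 1.67 to 2.02 in V5 and from 1.75 to 2.01 in wild-type, and the type 2 ratio from -0.85 to -0.73 and from -0.69 to -0.62. Library totals, the window limit, the length limit, a limit of 20 counts per type 1 gene and the removal of Chl1 were chosen after seeing the data. The type 1 log2 ratio of V5 to wild-type was -0.02 and turned to 0.18, 0.07 and 0.07 in leave-one-out runs, with a range of -0.19 to 0.18. The median log2 ratio of type 1 genes rests on 3 genes: it was 1.72 in V5 (1.25 at a minimum of 30 counts) and 1.31 in wild-type (1.94 with no minimum, and 0.72 to 1.33 with a library left out, the lowest without wild-type library 1). Vmn1r32 between V5 and wild-type turned from 0.24 to -0.036 without wild-type library 2 and to -0.079 without wild-type library 3, in leave-one-out runs that ranged up to 1.03. A single input and low type 1 counts limit every comparison with the input.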
